A study of Mus musculus with 16 samples.

Results

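The integrin and laminin genes measured on the array comprised 39 genes, represented by 84 probe sets, of 18194 genes and 45101 probe sets in all. They were chosen by name: every probe set with a single gene symbol that begins with Itga or Itgb, or that is Lama, Lamb or Lamc with a number. They were read as 8 leukocyte integrins, 17 matrix-binding integrins, 4 partners that carry integrin in their name without being a subunit, and 10 laminin chains. Itgad, Itga11 and Itgb1bp3 were not analysed here. The tissues were interscapular brown adipose tissue (BAT) and subcutaneous white adipose tissue (sWAT) of LACA mice labelled male, weighing 25 ± 3 g, kept on standard chow and given no treatment. Their age was not given in the sources used here. Each tissue had 4 replicates, numbered 1 to 4, with 2 Affymetrix mouse genome arrays per replicate. The study describes 4 mice, while the labels tie no replicate number to a mouse, so p-values measure the spread between these samples.

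Integrins are pairs of an alpha and a beta chain that span the cell membrane and bind either the matrix around a cell or a receptor on another cell. Leukocytes carry their own set, the beta2, beta7 and alpha4 chains, with which they stick to vessel walls and to other immune cells. Laminins are trimers of an alpha, a beta and a gamma chain that form a sheet of the basement membrane, the layer that surrounds each adipocyte, muscle fibre, nerve and vessel, and several matrix-binding integrins are their receptors.

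All values are on the log2 scale relative to the median of a probe set over the 16 arrays, so they give differences between samples and not the level of a gene. The 2 arrays of a replicate were averaged, and then the probe sets of a gene. Differences are BAT minus sWAT with a standard error (SE), n = 4 per tissue, from limma with Benjamini-Hochberg adjustment over all 18194 genes. A gene is called higher or lower where its adjusted p is under 0.05.

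Several libraries stood apart. Xist, the RNA of the inactive X chromosome, was at 5.74 to 6.36 in BAT replicates 1 to 3 and at -0.26 in BAT replicate 4, against -0.27 to -0.11 in the sWAT replicates, although all are labelled male. The mean of 3 Y-linked genes was -2.33 to -1.98 in BAT replicates 1 to 3 and 0.18 in BAT replicate 4, against 0.20 to 0.39 in sWAT. In BAT replicates 1 to 3 a difference between tissues therefore cannot be told apart from one between sexes or animals, and this holds for every BAT minus sWAT value below. BAT replicate 4 is the only one that is like sWAT in these genes. On 2 arrays, 1 of BAT replicate 1 and 1 of sWAT replicate 3, signal at the 5' end of Gapdh and Actb was low against the 3' end (-3.69 and -4.92, against -1.36 to 0.33 on the other 14). Over all probe sets, the r with the partner array was 0.51 in BAT and 0.34 in sWAT, against 0.85 to 0.92 in the other replicates. All 9 of 9 brown adipocyte markers were higher in BAT, and their list mean ran between 2.69 and 3.05 in BAT replicates 1 to 3 and was lowest, at 1.68, in BAT replicate 4 (sWAT -2.39 to -1.29). Elovl3, one of them, was at 0.10 in BAT replicate 4 and at 5.89 to 6.86 in the other 3. Lep, leptin, a hormone of white fat, was at 0.75 in BAT replicate 4 and at -2.35 to -1.51 in the other 3, against -0.12 to 1.13 in sWAT, and was not called. In BAT 12 of 12 skeletal muscle fibre markers were also higher, and 9 of 9 B cell and 9 of 10 T cell markers were lower.

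Of the 39 integrin and laminin genes, 6 were higher and 11 lower in BAT than in sWAT, and 22 were not called. Over all genes tested 21.0% were higher and 17.5% lower, so the share of lower genes is above and that of higher genes below the background. Called either way were 17 of the 39, against 38.4% of all genes. At a fold of at least 2, 2 of the 39 were higher and 6 lower, against 7.13% and 8.0% of all genes. All 4 BAT replicates lay above all 4 sWAT replicates for 7 of the 39 and below them for 9, against 28.0% and 17.4%. Of the 84 probe sets taken singly 9 were higher and 16 lower, against 15.1% and 17.3% of all probe sets, and no gene had probe sets called in opposite directions. In 10 genes some probe sets were called and others were not. The median log2 difference of the 39 genes was 0.03, against 0.15 over all genes. The lower genes lay mostly among the leukocyte integrins, of which 7 of 8 were lower and 0 higher (0 also at an unadjusted p under 0.05, by limma and by the methods' t-test). Without replicate 3, 1 leukocyte integrin was higher at an unadjusted p under 0.05 by limma. Of the matrix-binding integrins 2 of 17 were higher and 4 lower, which is near the background. Of the laminins 3 of 10 were higher and 0 lower (0 also at an unadjusted p by both tests). When each array was scaled to the 3' probe sets of Gapdh and Actb, 2 of the 39 genes were higher and 7 lower, in place of 6 and 11. In that fit the SE was 0.31 for every gene, against a median of 0.14 otherwise.

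**Figure D1:**
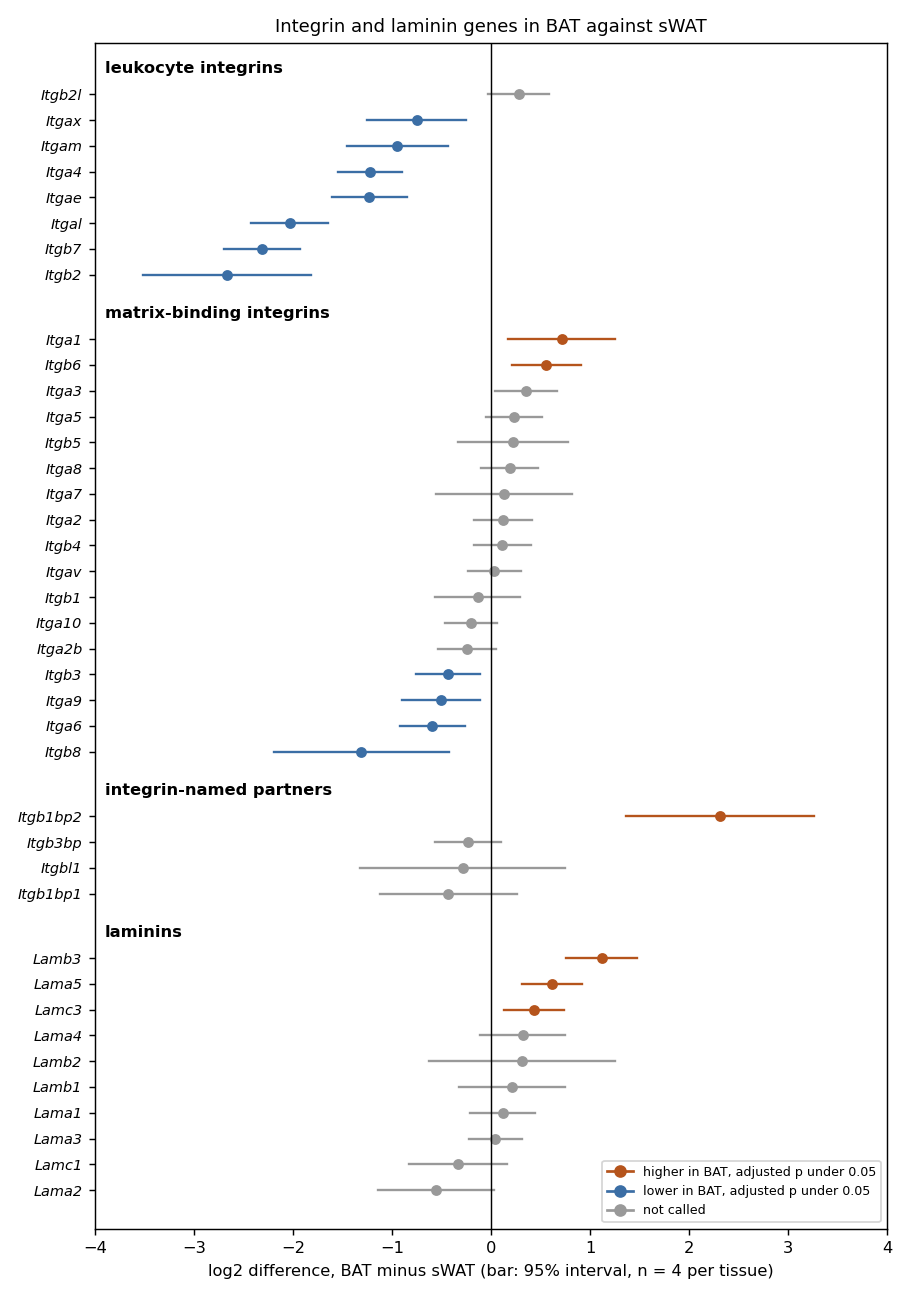
Log2 difference of each integrin and laminin gene, BAT minus sWAT, in 4 groups. Points are the fitted differences, bars the 95% intervals (n = 4 per tissue), and colours the call. Of the leukocyte integrins 7 of 8 lie left of 0, while the matrix-binding integrins lie on both sides and Itgb1bp2 lies farthest to the right at 2.31.

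Among the leukocyte integrins the beta2 chain Itgb2, which pairs with the alphaL, alphaM and alphaX chains, had the largest difference. Itgb2 was at -2.41, -1.51, -1.10 and -0.23 in BAT replicates 1 to 4, against 1.69, 1.25, 0.75 and 1.73 in sWAT. All 4 BAT values lay below all 4 sWAT values, with BAT replicate 4 nearest to sWAT. The difference was -2.66 ± 0.36 (SE, adjusted p = 0.00139), which is 6.34-fold lower in BAT. It was not past the threshold by the methods' t-test (adjusted p = 0.06).

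The alpha chains that pair with Itgb2 were lower as well. Itgal, the alphaL chain of the lymphocyte receptor LFA-1, was at -1.34, -1.32, -1.10 and -0.53 in BAT and at 1.23, 0.63, 0.81 and 1.18 in sWAT. The tissues did not overlap, and Itgal was 4.10-fold lower in BAT (-2.04 ± 0.16, adjusted p = 1.72e-04). Its 2 probe sets were both lower but unlike in size, at -3.198 and -0.87. Itgam, the alphaM chain of myeloid cells (CD11b), was at -1.36, -1.05, -0.80 and 0.71 in BAT and at 0.00, 0.46, -0.40 and 1.24 in sWAT. BAT replicate 4 lay above 3 of the sWAT replicates, so the tissues overlapped. The difference in Itgam was -0.95 ± 0.22 (adjusted p = 0.0129), and it was not called without replicate 1 or without replicate 2 (adjusted p = 0.0603 and 0.0525). It was not called without the replicate block either (adjusted p = 0.124). By the Xist values above, a shared number is not a shared mouse in numbers 1 to 3. Itgax, the alphaX chain of dendritic cells and macrophages (CD11c), was at -0.92, -0.70, -0.23 and -0.00 in BAT and at 0.26, 0.54, -0.13 and 0.50 in sWAT, and the tissues overlapped only through sWAT replicate 3. On the array of low 5' signal of that replicate Itgax was at -0.72, and on the other array at 0.46. The difference in Itgax was -0.75 ± 0.21 (adjusted p = 0.0288), also not called without replicate 1 or without replicate 2 (adjusted p = 0.113 and 0.116).

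The beta7 chain and its alpha partners were also lower in BAT. Itgb7, which forms the gut homing receptor with alpha4 and the receptor for E-cadherin with alphaE, was at -0.51, -0.72, -0.66 and -0.37 in BAT, against 2.004, 1.83, 1.12 and 2.05 in sWAT. The BAT replicates lay close together and far below sWAT, and Itgb7 was 4.98-fold lower in BAT (-2.32 ± 0.16, adjusted p = 1.09e-04). Itgae, the alphaE chain of T cells that reside in epithelia (CD103), was at -0.41, -0.64, -0.61 and -1.03 in BAT and at 0.56, 0.58, 0.39 and 0.71 in sWAT, with no overlap. Itgae was 2.35-fold lower in BAT (-1.23 ± 0.16, adjusted p = 0.0012). Itga4, which also pairs with the beta1 chain to bind VCAM-1, was at -0.71, -0.61, -0.79 and -0.29 in BAT and at 0.85, 0.37, 0.30 and 0.94 in sWAT, again with no overlap. Itga4 was 2.33-fold lower in BAT (-1.22 ± 0.14, adjusted p = 6.31e-04). Its 5 probe sets did not behave alike: 3 were lower and 2 were not called, over a range of -2.52 to -0.12. Itgb2l, a gene similar to Itgb2, was the leukocyte integrin that was not called (0.28 ± 0.13, adjusted p = 0.127). Of its 3 probe sets 1 was higher at 0.52 and 2 were not called. With the 2 arrays of low 5' signal and the block left out together, Itgb2l was called higher in BAT by limma, at 0.26 (adjusted p = 0.0198).

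**Figure D2:**
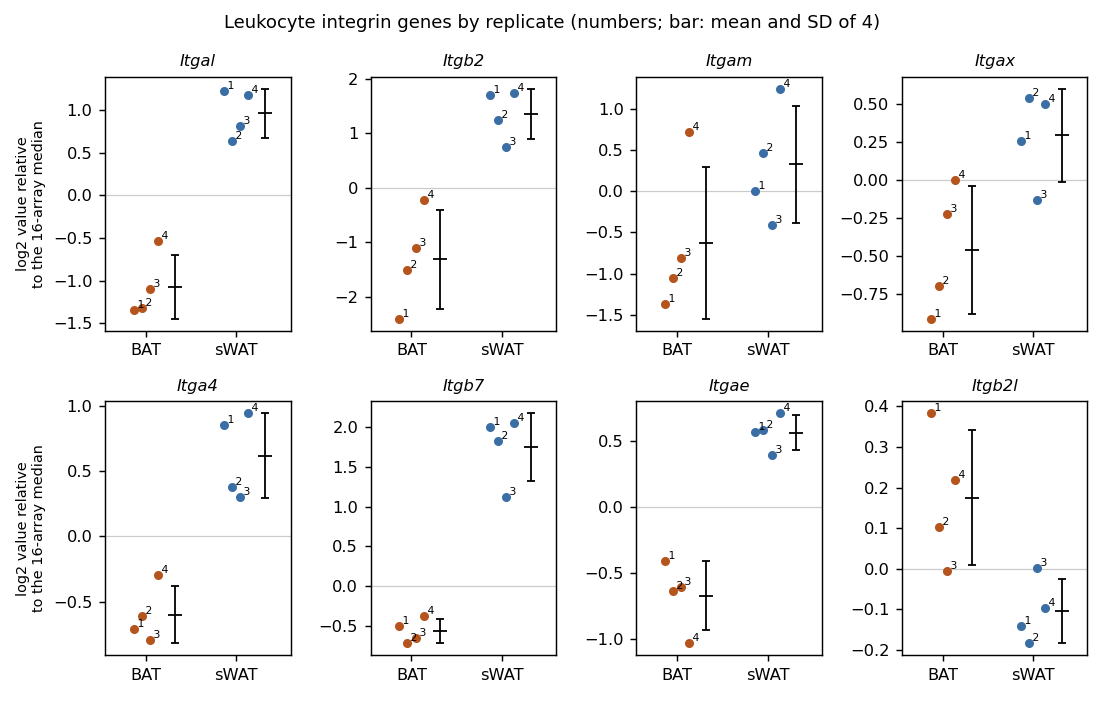
Values of the 8 leukocyte integrin genes in each replicate, on the log2 scale relative to the 16-array median, each panel with its own axis. Numbers are replicate numbers and bars the mean and SD of 4. BAT lies below sWAT without overlap for Itgal, Itgb2, Itga4, Itgb7 and Itgae, and BAT replicate 4 lies at 0.71 for Itgam.

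B and T cell markers moved the same way as these genes, and markers of other leukocytes did so in part. B cell markers had a median difference of -4.32, with list means of -2.08 to -1.46 in BAT and 1.63 to 2.32 in sWAT. T cell markers had a median difference of -3.06, with list means of -1.46 to -0.81 in BAT and 1.24 to 1.77 in sWAT. Of the macrophage and monocyte markers 6 of 11 were lower and 1 higher, with 2 lower without replicate 1, 3 without replicate 2 and 1 by the methods' t-test. Their list mean in BAT was highest in replicate 4 (0.29), as was Itgam. Of the dendritic cell markers 4 of 6 were lower by limma, while by the methods' t-test 1 was lower and 1 higher. Zbtb46 of this list lay above sWAT in every BAT replicate (0.24) and was not called by limma. Of the neutrophil markers 1 of 5 was lower by limma and 1 by the methods' t-test over all 4 replicates. With any 1 replicate left out 0 were lower by limma (0 to 3 at an unadjusted p under 0.05). Of the platelet markers 0 of 7 were called by limma (1 higher at an unadjusted p under 0.05) and 0 by the methods' t-test. Centred values cannot show whether a marker is absent from a tissue. The part of these cells in the differences of the leukocyte integrins was not tested, and in whole tissue fewer cells of a type and less RNA per cell cannot be told apart.

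The promoters of 4 leukocyte integrin genes that were lower in BAT are shown because these genes moved together, each as the 250 bases before the RefSeq start on GRCm38.p6, 5′ to 3′ on the gene's strand. Capitals mark any match, on either strand, to 5 short motifs: GAGGAA (core bound by the myeloid factor PU.1), its longer form GAGGAAGT, TGTGGT (bound by RUNX factors), TTCCGG (bound by ETS factors) and the E-box CACGTG. Motifs and genes were chosen with the values known. The positions are chr7:128062390-128062639 (plus strand) for Itgam, chr7:128129300-128129549 (plus strand) for Itgax, chr2:79255176-79255425 (plus strand) for Itga4 and chr15:102231936-102232185 (minus strand) for Itgb7.
Itgam: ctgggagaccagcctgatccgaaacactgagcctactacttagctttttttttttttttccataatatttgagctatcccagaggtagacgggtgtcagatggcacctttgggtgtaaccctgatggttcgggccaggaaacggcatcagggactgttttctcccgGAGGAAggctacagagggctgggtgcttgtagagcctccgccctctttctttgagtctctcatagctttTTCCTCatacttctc
Itgax: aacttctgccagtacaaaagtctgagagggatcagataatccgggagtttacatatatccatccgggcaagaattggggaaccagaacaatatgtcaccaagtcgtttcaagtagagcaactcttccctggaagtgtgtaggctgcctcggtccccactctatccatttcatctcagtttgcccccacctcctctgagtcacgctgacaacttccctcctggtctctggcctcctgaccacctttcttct
Itga4: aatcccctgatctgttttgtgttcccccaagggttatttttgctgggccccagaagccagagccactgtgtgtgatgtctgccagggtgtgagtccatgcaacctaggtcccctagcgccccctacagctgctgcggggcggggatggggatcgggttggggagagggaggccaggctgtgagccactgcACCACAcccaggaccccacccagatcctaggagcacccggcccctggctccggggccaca
Itgb7: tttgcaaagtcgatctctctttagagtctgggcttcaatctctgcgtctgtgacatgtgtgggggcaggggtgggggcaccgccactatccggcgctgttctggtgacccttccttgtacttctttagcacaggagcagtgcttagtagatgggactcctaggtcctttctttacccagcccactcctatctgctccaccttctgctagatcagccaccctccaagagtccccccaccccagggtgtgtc
Itgam held 2 matches to GAGGAA and Itga4 held 1 to TGTGGT, while Itgax and Itgb7 held none of the 5. The promoter of Itgb2l, the leukocyte integrin that was not lower, held GAGGAA and GAGGAAGT. Itgal, Itgb2 and Itgae are not shown. GAGGAA occurs in 23.3% of the 32851 promoters of the same length, and in 13 of the 29 promoters found for 26 of the 39 integrin and laminin genes, laminins included. TGTGGT occurs in 14.0% of all promoters and in 2 of the 29, GAGGAAGT in 2.4% and 3, TTCCGG in 12.0% and 3, and CACGTG in 6.0% and 0. A match describes the letters only and is not a binding site.

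The matrix-binding integrins were divided. Itgb8, the beta8 chain that pairs with alphaV and activates latent TGF-beta, was at -1.54, -1.05, -1.35 and 0.08 in BAT and at 0.17, 0.80, 0.65 and -0.23 in sWAT. BAT replicates 1 to 3 lay below all sWAT values, while BAT replicate 4 lay above sWAT replicate 4. The difference was -1.31 ± 0.37 (adjusted p = 0.0303), 2.48-fold lower in BAT, and it was not called without replicate 1, 2 or 3 (adjusted p = 0.122, 0.101 and 0.0901). It was -1.88 on the biological arrays alone and -0.75 on the technical arrays alone, where it was not called (adjusted p = 0.0996), and the 2 arrays of a replicate differed by a median of 0.57. Its partner Itgav, which serves as the alpha chain of several beta chains, was at 0.17, 0.06, -0.05 and 0.04 in BAT and at 0.00, -0.01, 0.02 and 0.08 in sWAT. The tissues overlapped, and the difference of 0.03 had a 95% interval of -0.24 to 0.30.

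3 further matrix-binding chains were lower in BAT by smaller amounts and without overlap between tissues. Itga6, an alpha chain of laminin receptors, differed by -0.59 ± 0.14 (adjusted p = 0.0148), Itga9, which binds tenascin-C and VCAM-1, by -0.51 ± 0.17 (adjusted p = 0.0478), and Itgb3, the beta chain of the vitronectin and fibrinogen receptors, by -0.44 ± 0.14 (adjusted p = 0.044). These calls were close to the threshold. Itga6 was not called without replicate 1, 2 or 4 (adjusted p = 0.0538, 0.0702 and 0.0518), Itga9 not without 1, 2 or 3 (0.0611, 0.191 and 0.12), and Itgb3 not without any 1 replicate (0.0701, 0.153, 0.101 and 0.0616). The 2 probe sets of Itgb3 were at -0.94 and 0.07, and only the first was called. Of the probe sets of Itga6 1 of 2 was lower, and of those of Itga9 2 of 3, the others not being called.

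Itga1 and Itgb6 were higher in BAT. Itga1, the alpha chain of a collagen receptor, was at -0.25, 0.47, 0.34 and 0.56 in BAT and at -0.08, -0.41, -0.61 and -0.64 in sWAT. BAT replicates 2 to 4 lay above all sWAT values, while BAT replicate 1 lay among them. The difference was 0.71 ± 0.23 (adjusted p = 0.0448), and of its 2 probe sets 1 was higher at 1.34 and the other was at 0.09 and not called. It was not called without replicate 2, 3 or 4 (adjusted p = 0.138, 0.11 and 0.138), nor without the 2 arrays of low 5' signal (0.063). Itgb6, a beta chain of epithelia, differed by 0.56 ± 0.15 (adjusted p = 0.0238) without overlap, and it was not called without replicate 1, 2 or 4 (0.0838, 0.106 and 0.0788). Of its 2 probe sets 1 was higher at 0.71 and the other was at 0.40 and not called. On the biological arrays alone Itgb6 was at 0.38 and not called (adjusted p = 0.129). Of the keratinocyte and epithelial markers 3 of 9 were higher and 2 lower, with 1 higher without replicate 1 or without 4 and 0 higher without 2 (limma; 2 at an unadjusted p under 0.05). By the methods' t-test 1 was higher and 0 lower (2 and 2 unadjusted).

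The beta1 chain Itgb1, the common partner of most matrix-binding alpha chains and of Itga4, was at -0.52, -0.33, -0.06 and 0.12 in BAT and at 0.07, 0.04, -0.47 and 0.12 in sWAT. The tissues overlapped and Itgb1 was not called (-0.14 ± 0.18, 95% interval -0.56 to 0.29), with its 6 probe sets between -0.78 and 0.31. Itga3, another laminin receptor chain, lay above sWAT in every BAT replicate but missed the threshold at 0.36 ± 0.13 (adjusted p = 0.0712). The differences of the other 8 chains, Itga5, Itgb5, Itga8, Itga7, Itga2, Itgb4, Itga10 and Itga2b, ran between -0.25 and 0.23, and none was called (limma; at an unadjusted p under 0.05, 7 of the 17 matrix-binding chains passed in all, of which 6 are the called ones and the other is Itga3).

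Of the partners, Itgb1bp2 was the only one called. It encodes melusin, a protein of striated muscle that binds the tail of the beta1 chain. Itgb1bp2 was at 0.94, 1.63, 0.54 and 2.99 in BAT, against -0.85, -0.75, -0.63 and -0.93 in sWAT. All BAT values lay above all sWAT values, with replicate 4 far above the rest. The difference was 2.31 ± 0.40 (adjusted p = 0.00427), 4.97-fold higher in BAT, the largest rise among the 39 genes, and it was not past the threshold by the methods' t-test (adjusted p = 0.0901). The skeletal muscle fibre markers, 12 of 12 higher with a median difference of 5.37, had list means of 2.38, 3.34, 2.26 and 3.86 in BAT and of -2.10 to -1.77 in sWAT. Replicate 4 was the highest in BAT for both, followed by 2, 1 and 3, and the part of muscle fibre in the difference of Itgb1bp2 was not tested. Itgb1bp1, which binds the same tail and restrains the integrin, Itgb3bp, a protein of the centromere, and Itgbl1, a secreted protein similar to beta chains, were at -0.43, -0.23 and -0.29 and were not called. Itgbl1 was at 1.51 in BAT replicate 4 and at 1.52 in sWAT replicate 2, against -0.59 to 0.21 in the other 6, and without replicate 4 it was called at -0.89 (adjusted p = 0.0301).

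Among the laminins Lamb3, the beta3 chain of an epithelial laminin trimer, was at 0.95, 1.19, 0.69 and 0.30 in BAT and at -0.35, -0.20, -0.41 and -0.36 in sWAT. The tissues did not overlap, and Lamb3 was 2.17-fold higher in BAT (1.12 ± 0.15, adjusted p = 0.00148). Its partner Lama3, the alpha chain of the same trimer, was at 0.24, 0.13, -0.07 and -0.02 in BAT and at 0.15, 0.08, 0.02 and -0.13 in sWAT. Those values overlapped, and the difference of 0.04 had a 95% interval of -0.22 to 0.31. Lama5, the alpha chain of laminins of vessels and epithelia, lay in a narrow band in BAT, at 0.33, 0.28, 0.30 and 0.31, against -0.44, -0.13, -0.51 and -0.17 in sWAT. Lama5 was 1.53-fold higher in BAT (0.62 ± 0.13, adjusted p = 0.00912), and it lost the call when arrays were scaled to the 3' probe sets of Gapdh and Actb, where its difference was 0.64 and its SE 0.31 (adjusted p = 0.149). Lamc3, a gamma chain, differed by 0.43 ± 0.13 (adjusted p = 0.034) and was not called without replicate 1, 2 or 4 (0.0782, 0.17 and 0.111). Of the probe sets of Lama5 2 of 3 were higher, and of those of Lamc3 1 of 2, the others not being called.

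The remaining laminin chains were not called. Lama4, the alpha chain of endothelium and adipocytes, differed by 0.32 ± 0.18 (adjusted p = 0.192), with 1 of its 2 probe sets higher at 0.51 and the other at 0.13. It was called at 0.80 on the biological arrays alone (adjusted p = 0.0152) and was at -0.17 on the technical arrays alone. Lama2, the alpha chain of muscle and nerve, was at -1.003, -0.15, -0.40 and 0.47 in BAT and at -0.14, 0.94, 0.30 and 0.04 in sWAT, so that the tissues overlapped. Its difference was -0.55 ± 0.25 (adjusted p = 0.115), and without replicate 4 it was called at -0.88 (adjusted p = 0.00692). The fibroblast and progenitor markers, 5 of 8 lower by limma (7 without replicate 4, 1 without 3, and 0 without 1 or without 2, with 2 and 4 at an unadjusted p under 0.05), had their highest BAT list mean in the same replicate (0.76, against -1.60 to -0.84 in the other 3), and their part was not tested. By the methods' t-test 0 of these markers were lower (1 at an unadjusted p under 0.05). Lamb1, Lamb2, Lama1 and Lamc1 differed by -0.33 to 0.31.

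**Figure D3:**
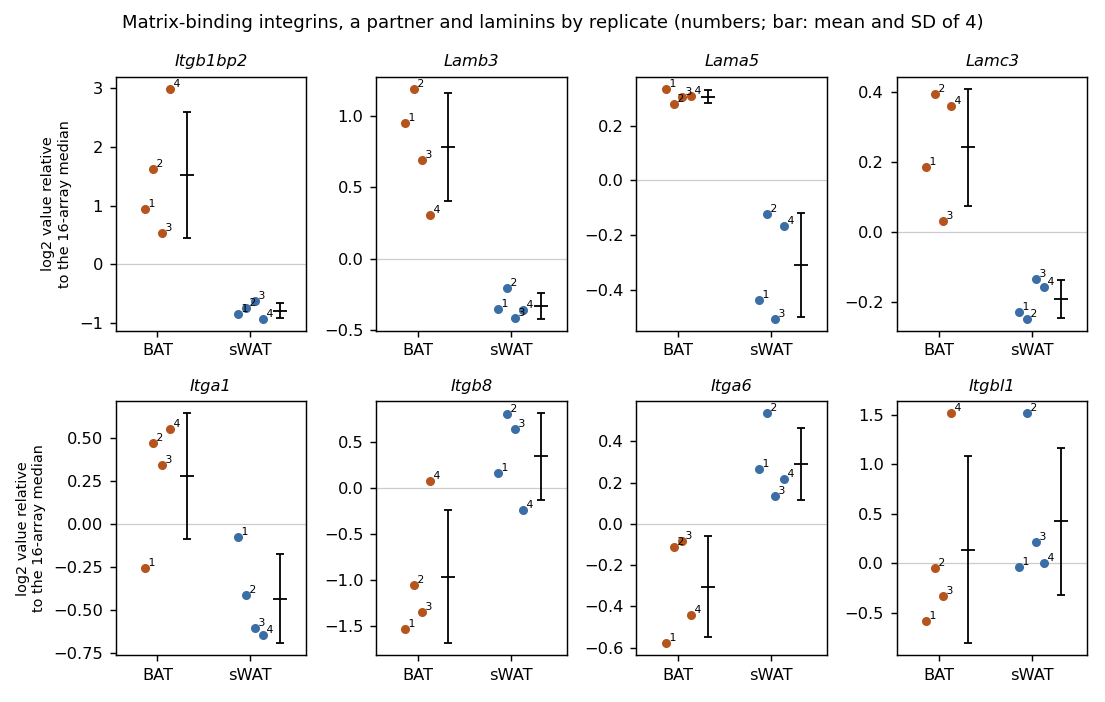
Values of 8 genes in each replicate, on the log2 scale relative to the 16-array median, each panel with its own axis. Numbers are replicate numbers and bars the mean and SD of 4. Itgb1bp2, Lamb3, Lama5 and Lamc3 lie higher in every BAT replicate than in any sWAT replicate, while for Itgb8 and Itga1 1 BAT replicate lies within the range of sWAT.

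The 2 arrays of low 5' signal touched some of these genes more than others. Lamb2, the beta2 laminin chain, was at -1.80 on the low array of BAT replicate 1, against -0.01 on the other array of that replicate, and at -2.23 and 0.01 on the low and the other array of sWAT replicate 3. In all, 8 of the 39 genes (20.5%) were lower on both low arrays than on their partner arrays by over 0.5, against 11.1% of all genes. They were Lamb2, Itgb1bp1, Itga7, Lama4, Itgb2, Itgb1, Itgb5 and Lamc1. Without these 2 arrays 19 of the 39 genes were called, 6 higher and 13 lower. Itga3 (0.35), Itgb1bp1 (-0.42) and Itga2b (-0.30) were then called and Itga1 was not, and the 7 leukocyte integrins remained lower.

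**Figure D4:**
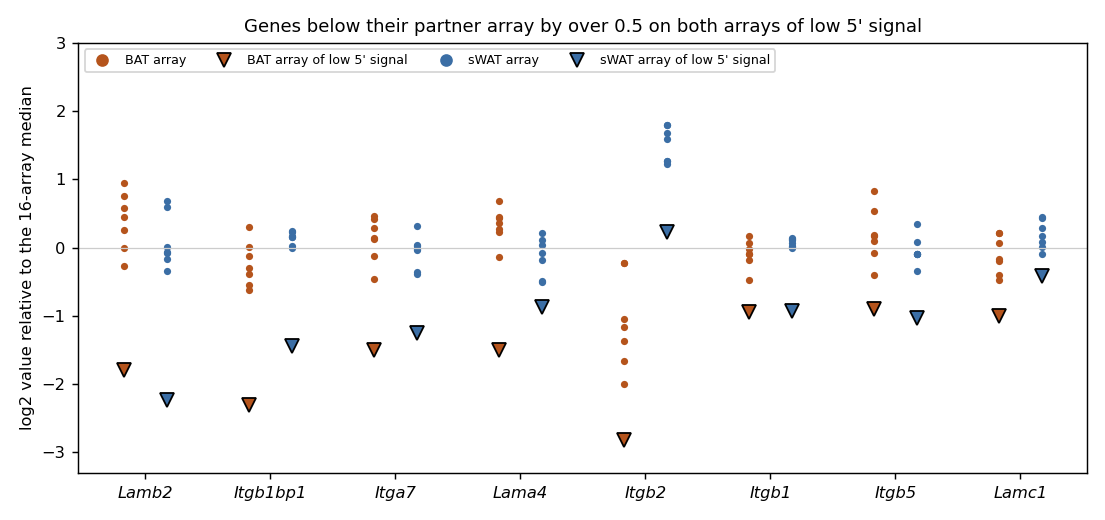
Values on each of the 16 arrays, log2 relative to the 16-array median, for the 8 genes that were lower on both arrays of low 5' signal than on their partner arrays by over 0.5. Circles are the other 14 arrays and triangles the 2 arrays of low 5' signal, BAT left of sWAT for each gene. For Lamb2 both triangles lie below all other arrays, at -1.80 and -2.23.

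The ligands of these receptors, proteins of vessel walls, matrix and blood, had 2 of 19 measured genes higher and 6 lower, with a median difference of -0.26, and 1 higher and 3 lower by the methods' t-test. Icam1, the ligand of the beta2 integrins on endothelium and immune cells, was at -2.26, -1.18, -0.88 and -0.63 in BAT and at 1.46, 1.12, 0.96 and 1.70 in sWAT, a difference of -2.55 ± 0.29 (adjusted p = 6.71e-04). Mfge8, a ligand of the alphaV chains on phagocytes, differed by -2.24 ± 0.17 (adjusted p = 1.52e-04), and Cdh1, E-cadherin, the ligand of alphaE with beta7, by -1.29 ± 0.20 (adjusted p = 0.00236). Vcam1 and Madcam1, the ligands of the alpha4 integrins, were singled out after their values were seen and were at -1.13 ± 0.17 and -0.96 ± 0.12. Cdh1 and Vcam1 were not past the threshold by the methods' t-test (adjusted p = 0.059 and 0.0554). The tissues did not overlap for any of these 5 genes. Npnt, nephronectin, a ligand of alpha8 with beta1, was higher by 0.48 ± 0.11 (adjusted p = 0.0154), and Fgg, a fibrinogen chain, by 0.41 ± 0.12 (adjusted p = 0.0328). Both were lost without replicate 2 (adjusted p = 0.0822 and 0.119), and Fgg also without replicate 1 or 4 and by the methods' t-test (adjusted p = 0.0528).

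Of the proteins inside the cell that switch integrins on and link them to actin, 7 of 26 measured were higher and 11 lower (4 higher and 10 lower without replicate 2 or by the methods' t-test, and 4 and 7 with the scaling to Gapdh and Actb). Fermt3, kindlin-3 of blood cells, was at -1.67, -1.23, -1.18 and -0.38 in BAT and at 1.70, 1.52, 0.95 and 1.86 in sWAT, a difference of -2.62 ± 0.22 (adjusted p = 1.86e-04). Fermt2, kindlin-2 of other tissues, was at 0.37, 0.43, 0.77 and 0.48 in BAT and at -0.44, -0.29, -0.04 and -0.91 in sWAT, a difference of 0.93 ± 0.15 (adjusted p = 0.00284). These 2 genes of 1 family thus differed in opposite directions, without overlap between tissues in either. Skap1, an adaptor of T cells that regulates LFA-1, was lower in BAT (-2.12 ± 0.11, adjusted p = 4.96e-05), and so was Rap1b, a small GTPase that activates integrins (-1.23 ± 0.14, adjusted p = 7.86e-04). Lims2, a partner of integrin-linked kinase, and Tns1, a tensin of focal adhesions, were higher by 1.17 ± 0.17 and 1.06 ± 0.12, Lims2 not by the methods' t-test (adjusted p = 0.0512). Ilk itself differed by 0.03 ± 0.35 and was not called.

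Of the other proteins of the basement membrane and its receptors, 8 of 20 measured were higher and 1 lower. By the methods' t-test 2 were higher and 0 lower (7 and 1 at an unadjusted p under 0.05), and with the scaling to Gapdh and Actb by limma 4 and 0 (7 and 1 unadjusted). Dag1, dystroglycan, a laminin receptor that is no integrin, was at 0.37, 0.94, 0.87 and 0.55 in BAT and at -0.40, -0.08, -0.80 and -0.33 in sWAT, without overlap. It was higher by 1.08 ± 0.17 (adjusted p = 0.00279). Of the genes of its complex, Sgca, a sarcoglycan of striated muscle, was higher by 0.99 ± 0.18 (adjusted p = 0.00517), and Sspn, sarcospan, by 0.95 ± 0.25 (adjusted p = 0.0221). Sspn was not called without replicate 3 or 4 (adjusted p = 0.0664 and 0.0542), and by the methods' t-test Dag1, Sgca and Sspn were not past the threshold (adjusted p = 0.0563, 0.0725 and 0.146). Dmd, dystrophin, was higher as well (0.86 ± 0.12), beside the muscle fibre markers given above, whose part here was not tested. Nid1, nidogen, which links laminin to collagen IV, was lower in BAT (-0.77 ± 0.19, adjusted p = 0.017) and not called without replicate 1 or 2 (adjusted p = 0.0705 and 0.074). Of the 6 collagen IV genes, which form the other sheet of the basement membrane, 0 were called (limma; 0 also at an unadjusted p under 0.05, and 0 by the methods' t-test).

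**Figure D5:**
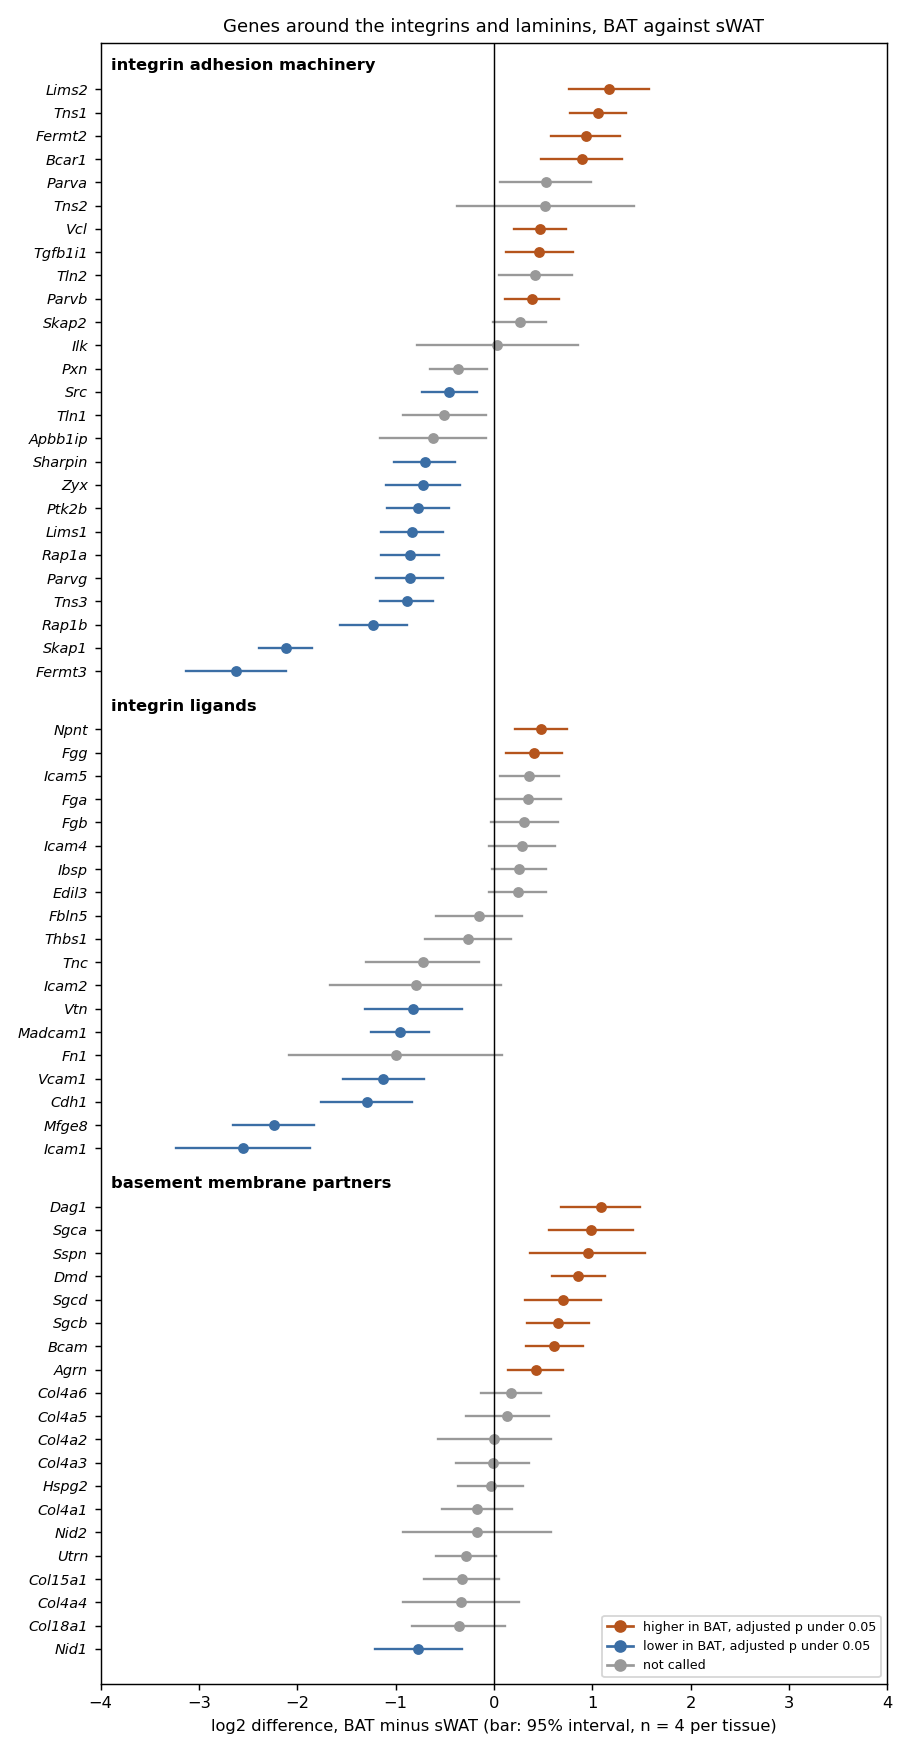
Log2 difference, BAT minus sWAT, of genes around the integrins and laminins in 3 groups. Points are the fitted differences, bars the 95% intervals (n = 4 per tissue), and colours the call. Fermt3 at -2.62 and Icam1 at -2.55 lie farthest left, and Lims2 at 1.17 and Dag1 at 1.08 farthest right.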

How the data were processed

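RNA of BAT and sWAT was measured on 16 Affymetrix mouse arrays, 8 per tissue, as 4 replicates of 2 arrays called biological and technical. Extraction is given as Trizol in the labels and as a column kit in the methods. In GeneSpring the authors applied RMA and quantile normalization and set every probe set against its own median across the samples, so the deposited values are log2 values relative to that median. RMA is the tool named in the submitters' processing notes, with no version. In the file the median of every probe set is 0, to within 5e-07. Signal over background is therefore unknown, and precision is limited by the number of arrays.

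Of 45101 probe sets 34958 carry 1 gene symbol in the platform annotation, 932 several and 9211 none, and those with 1 symbol gave 18194 genes. The 2 arrays of a replicate and then the probe sets of a gene were averaged. BAT minus sWAT was fitted in R 4.3.3 by limma 3.58.1, using lmFit and eBayes and a block for the replicate number, two-sided, with Benjamini-Hochberg adjustment over all genes, or over all probe sets where these are called singly. Positive differences are higher in BAT. The methods' t-test was paired over the replicate numbers. Data were simulated with the residual spread of these genes, and of 18194 genes 100 were changed by 1 log2 unit and 100 by 2. There the fit with the block recovered 48% of differences of 1 log2 unit and 94% of those of 2. Without the block it recovered 60% and 96%. In the real data 38.4% of genes were called, and the adjusted threshold depends on that share. The recovery rates are therefore not those of the fit reported. A gene that is not called may still differ. The members, the gene lists and the promoter motifs were chosen with earlier results of these data known. Values per replicate are given for genes called with a difference of at least 1 log2 unit, for their partners and for some genes whose probe sets or replicates disagreed. From each related list the genes with the largest differences in each direction are named, up to 3, a number chosen after the values were seen, and a few more, also after the values were seen, for their family or complex.

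Alternatives were the fit without the block, biological or technical arrays alone, the 2 arrays of low 5' signal left out, 2 scalings, the median of probe sets, probe sets ending in _at alone, the methods' t-test, robust eBayes, and each replicate number left out. Leaving out the 2 arrays together with the block was added after seeing the data. Promoters are from RefSeq on GRCm38.p6.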

Additional observations from a re-analysis of the deposited data

Results flagged for a closer look

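In 112 groups of 4 replicates, 3 had 1 replicate far from the others by Dixon's test, which chance alone gives in about 1 of 20 groups. Itgbl1 was at 1.52 in sWAT replicate 2, against -0.04 to 0.21 in the other sWAT replicates. Itga8, the alpha chain of the nephronectin receptor, was at -0.43 in sWAT replicate 4, against -0.01 to 0.03. Itgb1 was at -0.47 in sWAT replicate 3, which holds 1 array of low 5' signal, against 0.04 to 0.12, and on the low and the other array of that replicate it was at -0.93 and -0.00.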

How the results depend on the processing

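Centred values of 4 replicates per tissue leave small differences undecided, and calls of the matrix-binding integrins changed under most of the alternatives below. Scaling to the 3' probe sets of Gapdh and Actb gave 3771 called genes in place of 6989, 9 of the 39 integrin and laminin genes in place of 17, 1 matrix-binding integrin in place of 6 and 1 laminin in place of 3. In that fit the SE was 0.31 for every gene, against a median of 0.14 in the fit reported. The scaling takes 1 value off each array and so shifts the difference of every gene by the same small amount. The differences of Lama5 (0.64), Itga6 (-0.57) and Itgb6 (0.58) therefore had to stay near those reported. The methods' t-test gave 3567 genes, 6 of the 39, 4 leukocyte integrins in place of 7, and 0 matrix-binding integrins (1 higher and 3 lower at an unadjusted p under 0.05, against 6 called by limma). Biological arrays alone and technical arrays alone each gave 3 matrix-binding integrins. Leaving out each replicate number gave 4627 to 6766 genes, 8 to 14 of the 39, 5 to 7 leukocyte integrins, 0 to 2 matrix-binding integrins (0 without replicate 2 by limma, with 1 higher and 2 lower at an unadjusted p) and 2 to 3 laminins. Beyond the SE of the scaled fit, the cause of these changes was not tested.

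Over 56 named genes and 15 alternatives, 727 of 840 values kept direction and side of the threshold, 84 lost the call, 12 gained it and 17 changed sign, all 17 in genes called neither way. Itga4, Itgae, Itgal, Itgb7 and Lamb3 were called in 15 of 15. The sign changes were Lama4 (-0.17), Lamb2 (-0.27), Itgb5 (-0.16), Itga7 (-0.31) and Itgb4 (-0.11) on technical arrays alone. On biological arrays alone they were Lama3 (-0.12), Itgav (-0.0797) and Itgb1 (0.11). Scaling to array medians turned Lama3 (-0.0187) and Itgav (-0.0275), and probe sets ending in _at alone turned Itgav (-0.0246). With each replicate number left out in turn, Itgav ran between -0.0113 and 0.0679, Itgb1 between -0.32 and 0.0113, Itgbl1 between -0.89 and 0.14, Lamb2 between -0.12 and 0.65 and Itga7 between -0.11 and 0.40, and of these only Itgbl1 was called, without replicate 4. Within single replicate numbers Itga1 was at -0.18 in number 1 and Itgb8 at 0.31 in number 4.

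The replicate block was checked against the numbers: deviations of same-numbered BAT and sWAT samples correlated at -0.15, 0.08, -0.34 and 0.26. The highest correlation of any pair was 0.52, between BAT replicate 1 and sWAT replicate 3, which each hold 1 array of low 5' signal. These correlations alone cannot decide whether a shared number is a shared mouse. In numbers 1 to 3, however, Xist was at 5.74 to 6.36 in BAT and at -0.27 to -0.11 in sWAT. By this gene, numbers 1 to 3 are not shared mice, and the block and the methods' t-test match them by number only. Number 4 stays undecided, with Xist at -0.26 in BAT and -0.27 in sWAT. Without the replicate block 8573 genes and 17 of the 39 were called, 7 higher and 10 lower, 16 of them shared with the blocked fit. Leaving out the block and the 2 arrays of low 5' signal together, an alternative chosen after seeing the data, gave 21 of the 39.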

Other observations

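Markers of further cell types that carry a basement membrane were read beside the laminins. Of the Schwann cell and nerve markers 3 of 5 were higher in BAT and 0 lower (0 also at an unadjusted p under 0.05, by limma and by the methods' t-test), with list means of 0.33 to 0.82 in BAT and of -0.91 to -0.34 in sWAT. Of the smooth muscle and pericyte markers 3 of 8 were higher, and of the endothelial markers 1 of 9. By the methods' t-test 1 of the Schwann cell, 1 of the smooth muscle and 0 of the endothelial markers were higher (2 of the endothelial at an unadjusted p under 0.05). The adipocyte markers, 2 of 6 higher and 1 lower, had list means of -0.59 to 0.27 in BAT and of -0.29 to 0.24 in sWAT, which overlap.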
